A study of Homo sapiens with 3 samples.

Results

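The hormone receptors and luminal transcription factors were followed as a set of 9 genes in T47D, a human breast cancer cell line of luminal, estrogen receptor-positive type. They were taken by symbol from the deposited expression table, and all 9 were found among its 58039 genes: the receptors ESR1 and PGR, the receptor corepressor NRIP1, the transcription factors FOXA1, GATA3, TFAP2C and XBP1, and the estrogen targets GREB1 and TFF1. All 9 had a mean level of at least 1 FPKM (fragments scaled to transcript length and library size) and so belonged to the 13112 genes tested. The cells carried lentiviral vectors and had been selected as stable lines with puromycin. The ERINA knockdown group held 1 library with shRNA1 and 1 with shRNA2, each a different short hairpin RNA against the long noncoding RNA ERINA. The control group held 1 library, described as shCtrl in one label and as carrying no shRNA in another. No hairpin and no control was repeated, so the only spread behind the p-values is that between the shRNA1 and shRNA2 libraries. For each gene this spread is blended with that of the other genes tested, and the control is assumed to vary as the shRNA libraries do. Bulk RNA cannot tell fewer cells of a kind from less RNA per cell.

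Estrogen receptor alpha, the product of ESR1, is a ligand-activated transcription factor that binds DNA with the help of FOXA1, a pioneer factor that opens chromatin, and of GATA3 and TFAP2C, which keep mammary cells luminal. On estrogen it raises targets such as PGR, GREB1, TFF1, XBP1 and NRIP1. NRIP1 in turn encodes RIP140, a corepressor that docks on the ligand-bound receptor, and GREB1 encodes a receptor cofactor. The set thus holds receptors, the factors that act with them and genes they regulate.

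Promoter sequence was available for 6 of the 9 genes, as 21 RefSeq windows on GRCh38.p14 that run from 250 bases before a transcript start to 50 bases after it. ESR1 and GATA3 had 6 windows each, PGR and NRIP1 had 3 each, XBP1 had 2 and FOXA1 had 1, whereas GREB1, TFF1 and TFAP2C had no entry. The 3 genes with the highest knockdown to control ratios that have a window, NRIP1, FOXA1 and PGR, are shown with 1 window each, beside XBP1, whose window holds a rare stress element. Capitals mark words found by search, which are described after the sequences, and every sequence runs 5′ to 3′ on the minus strand, on which these 4 genes lie. The NRIP1 and PGR windows shown are not those farthest upstream of these genes, which hold none of the words.
NRIP1 chr21:15064951-15065250: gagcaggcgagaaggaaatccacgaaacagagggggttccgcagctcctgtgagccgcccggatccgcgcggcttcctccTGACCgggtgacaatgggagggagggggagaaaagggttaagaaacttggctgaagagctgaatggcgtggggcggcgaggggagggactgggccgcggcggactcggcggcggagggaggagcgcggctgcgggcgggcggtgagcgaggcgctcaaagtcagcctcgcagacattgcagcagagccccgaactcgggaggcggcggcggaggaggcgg
FOXA1 chr14:37595200-37595499: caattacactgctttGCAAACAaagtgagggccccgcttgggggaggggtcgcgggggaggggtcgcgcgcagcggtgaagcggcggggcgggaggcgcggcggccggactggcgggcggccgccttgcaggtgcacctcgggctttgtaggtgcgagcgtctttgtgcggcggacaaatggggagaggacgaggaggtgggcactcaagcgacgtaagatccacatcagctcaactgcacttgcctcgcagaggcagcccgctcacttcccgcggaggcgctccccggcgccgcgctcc
PGR chr11:101129028-101129327: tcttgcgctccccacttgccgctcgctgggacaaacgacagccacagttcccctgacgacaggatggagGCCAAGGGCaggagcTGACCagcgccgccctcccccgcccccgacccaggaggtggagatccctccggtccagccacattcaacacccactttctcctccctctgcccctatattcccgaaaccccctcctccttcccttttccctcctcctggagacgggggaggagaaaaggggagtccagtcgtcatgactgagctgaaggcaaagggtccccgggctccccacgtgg
XBP1 chr22:28800520-28800819: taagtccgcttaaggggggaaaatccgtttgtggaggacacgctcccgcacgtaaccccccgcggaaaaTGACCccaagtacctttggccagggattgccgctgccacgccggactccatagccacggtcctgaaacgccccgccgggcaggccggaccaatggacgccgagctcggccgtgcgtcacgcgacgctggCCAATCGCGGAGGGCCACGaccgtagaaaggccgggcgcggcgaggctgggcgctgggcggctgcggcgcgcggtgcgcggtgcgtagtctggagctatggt

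By GENCODE release 29, the NRIP1 window holds 50 exonic and 250 intronic bases of its gene, and the FOXA1 window 149 exonic and 151 intronic bases. The PGR window is exonic over all 300 bases, and the XBP1 window holds 78 exonic bases with 222 bases outside the gene. The full estrogen response element GGTCANNNTGACC, searched on both strands, was in 0 of the 21 windows, and 0.057% of all 35116 windows in the table hold it. Its core GGTCA, which every full element contains, was in 9 windows of 5 genes (ESR1, GATA3, NRIP1, PGR and XBP1), against 37.4% of all windows. In capitals it reads TGACC, on the other strand, at 170 bases before the start in NRIP1, at 166 in PGR and at 181 in XBP1. The forkhead words TGTTTAC and TGTTTGC, of the kind FOXA1 binds, were in 2 windows and in 7.17% of all windows. One of the 2 is the FOXA1 window itself, as GCAAACA at 235 bases before the start, and the other belongs to GATA3. GATA words (AGATAA or TGATAA) were in 0 of the 21 windows and in 16.3% of all windows. The AP-2 word GCCNNNGGC was in 7 windows of 4 genes and in 23.2% of all windows, and in PGR it reads GCCAAGGGC at 181 bases before the start. The endoplasmic reticulum stress element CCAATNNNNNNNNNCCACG was in 1 of the 21 windows, at 52 bases before the XBP1 start, and in 27 windows of the whole table (0.0769%). All words were searched on both strands and are matches of letters only, and windows of 1 gene can overlap, as 2 PGR windows do.

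The cells read as luminal epithelium. Here and below, 3 values in a row are levels in the order control, shRNA1, shRNA2. The keratin KRT8 was at 2800, 2474 and 2221 FPKM, KRT18 at 1996, 2001 and 1770, and EPCAM at 159, 154 and 160. A list gene is called measured when it is among the genes tested. The leukocyte gene PTPRC was at most 0.00629 FPKM, and CD3E, COL3A1 and SOX10 were listed at 0 in all 3 libraries. ERINA, listed under its RefSeq synonym LINC00992, stood at 63.4, 5.21 and 8.91 FPKM, and its log2 change was -3.12 (SE 0.33). Its Benjamini-Hochberg adjusted p in limma, 0.0816, missed the threshold of 0.05. All 28 measured proliferation genes were lower with both shRNAs, against 42.6% of all genes tested, and 17 were at least 1.5-fold lower, against 7.21%. Their summed level was 1827 FPKM in the control against 972 with shRNA1 and 1142 with shRNA2. In limma 2 of the 28 were called lower, against 0.267% of all genes tested. By unadjusted limma p under 0.05, 27 were lower, against 15.9%. The 2 were GINS2 (41.5, 6.18 and 7.46 FPKM) and MYBL2 (43.3, 6.53 and 8.01 FPKM), at Benjamini-Hochberg adjusted p of 0.0361 and 0.0362 in limma. Basal and myoepithelial markers were lower with both shRNAs in 9 of 12 measured, against the same 42.6%. Their summed level over all 22 listed was 140, 89.9 and 101 FPKM. The basal median log2 change of -0.40 became -0.088 over 21 genes with no filter and -0.69 over 5 at a mean FPKM of at least 5. Stromal markers were lower with both in 3 of 5 measured, at a sum over 13 of 15.4, 8.45 and 9.995 FPKM. LUM, at 0.842, 1.05 and 1.57 FPKM, and DCN, below the filter at 0.0227, 1.25 and 0.663, were higher with both, and with no filter the stromal median went from -0.69 to -0.17. Of 15 immune and endothelial markers 1 was measured, at a sum of 5.11, 2.66 and 2.98 FPKM. The part of these shifts in the values that follow was not tested. Total FPKM was 790290 to 860240 per library, and depth was estimated at 3.1e+07 to 3.23e+07 fragments from genes with a single fragment.

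The study set cells with ERINA knocked down against control cells to see how gene expression is altered, and the 9 genes are taken from that comparison. Set against the control, NRIP1, FOXA1, PGR, GREB1 and XBP1 were higher with both shRNAs, GATA3, TFAP2C and TFF1 were lower with both, and ESR1 lay between. None of the 9 reached a Benjamini-Hochberg adjusted p under 0.05 in limma across the 13112 genes, where 0.0839% of genes were called higher and 0.267% lower. NRIP1 and TFF1 were the members at least 1.5-fold from the control with both shRNAs, in opposite directions.

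**Figure D1:**
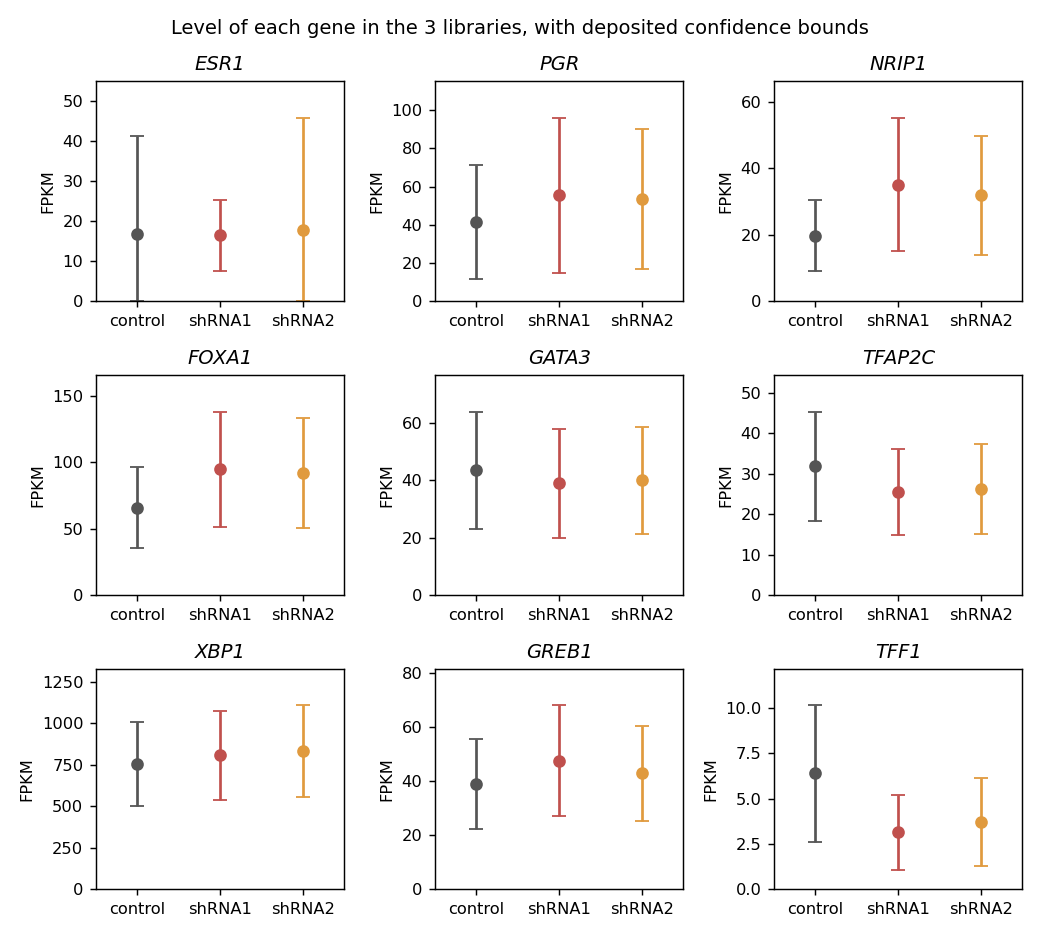
Level of each of the 9 genes in FPKM (vertical axes from 0, scaled per gene) in the control, shRNA1 and shRNA2 libraries. Points are the deposited values of single libraries and bars the deposited lower and upper confidence bounds. The control point lies below both shRNA points for NRIP1, FOXA1 and PGR and above both for TFAP2C and TFF1, and the bars of control and shRNA libraries overlap for every gene.

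ESR1 (ENSG00000091831, chromosome 6, 151656691 to 152129619, plus strand) encodes estrogen receptor alpha. The control held 16.8 FPKM (bounds as deposited, 0 to 41.3), against 16.5 with shRNA1 (7.59 to 25.4) and 17.96 with shRNA2 (0 to 45.9). The control value lay between those of the shRNA libraries. The ratio to the control was 0.984 with shRNA1 and 1.07 with shRNA2, and limma gave a log2 change of 0.04 (SE 0.11, Benjamini-Hochberg adjusted p of 0.839), whose sign turned (-0.039) when libraries were scaled to the same total and (-0.023) with the shRNA2 library left out. The deposited upper bound was 146% above the value in the control and 156% in shRNA2, the widest relative bounds among the 9 genes. The other estrogen receptor gene, ESR2, lay below the filter at 0.0528, 0.204 and 0.204 FPKM.

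PGR (ENSG00000082175, chromosome 11, 101029624 to 101130524, minus strand) encodes the progesterone receptor, which T47D is known to make in quantity. It was at 41.4 FPKM in the control (11.4 to 71.5), 55.4 with shRNA1 (14.8 to 96.0) and 53.7 with shRNA2 (17.1 to 90.3). Both shRNA values were above the control and close to each other, 54.6 ± 1.16 FPKM (SD, n = 2). The ratios were 1.34 and 1.30, and limma gave a log2 change of 0.39 (SE 0.08). The Benjamini-Hochberg adjusted p in limma was 0.0964, above the threshold. Thus ESR1 and PGR, receptor and classical target, stood at a PGR to ESR1 ratio of 2.47, 3.36 and 2.99.

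NRIP1 (ENSG00000180530, chromosome 21, 14961235 to 15065936, minus strand) showed the largest positive difference of the 9. The level of this corepressor gene was 19.7 FPKM in the control (9.16 to 30.3), 35.1 with shRNA1 (15.0 to 55.2) and 31.9 with shRNA2 (14.0 to 49.8). Both shRNA libraries were above the control by 1.78-fold and 1.62-fold, and their mean was 33.5 ± 2.23 FPKM (SD, n = 2). The log2 change of 0.75 (SE 0.10) lay above that of 96.0% of tested genes, and its limma Benjamini-Hochberg adjusted p was 0.0829. NRIP1 also stood higher among the genes of each shRNA library: the share of tested genes below it was 64.6%, then 78.3% and 76.3% with the shRNAs.

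FOXA1 (ENSG00000129514, chromosome 14, 37589984 to 37596059, minus strand) was the next highest in ratio. It was at 65.7 FPKM in the control (35.3 to 96.2), 94.8 with shRNA1 (51.5 to 138) and 91.5 with shRNA2 (50.2 to 133). The shRNA values differed from each other by far less than from the control, with a mean of 93.1 ± 2.32 FPKM (SD, n = 2). The ratios were 1.44 and 1.39, and the log2 change was 0.50 (SE 0.08, limma Benjamini-Hochberg adjusted p of 0.0841), above that of 91.3% of tested genes. FOXA1 overlaps TTC6 on the opposite strand, and whether reads were counted by strand is not given in the sources used here. TTC6 was at 7.27, 11.3 and 9.37 FPKM, and without strand its reads cannot be told from those of FOXA1 where the genes overlap. Other members overlap genes too. ESR1 overlaps SYNE1 on the opposite strand (2.51, 2.32 and 2.60 FPKM). On their own strands, GREB1 overlaps RN7SL674P (9.34, 10.6 and 9.49 FPKM) and GATA3 overlaps RP11-379F12.4 (5.91, 6.90 and 5.48 FPKM). Whether reads were divided correctly between these genes was not tested.

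GATA3 (ENSG00000107485, chromosome 10, 8045378 to 8075203, plus strand) is the zinc finger factor of luminal differentiation. Its level was 43.4 FPKM in the control (22.9 to 64.0), 39.0 with shRNA1 (19.9 to 58.0) and 40.0 with shRNA2 (21.4 to 58.5). Both shRNA values were slightly below the control, at ratios of 0.897 and 0.920, and the log2 change was -0.14 (SE 0.08, limma Benjamini-Hochberg adjusted p of 0.337). GATA3-AS1 overlaps it on the other strand and was at 18.7, 20.1 and 25.4 FPKM, above the control with both. The ratio of FOXA1 to GATA3 was 1.51, 2.43 and 2.29.

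TFAP2C (ENSG00000087510, chromosome 20, 56629302 to 56639283, plus strand) encodes the AP-2 gamma factor of luminal cells. It was at 31.8 FPKM in the control (18.3 to 45.3), 25.4 with shRNA1 (14.8 to 36.0) and 26.2 with shRNA2 (15.2 to 37.3). Both were below the control, at ratios of 0.799 and 0.825, with a log2 change of -0.30 (SE 0.09, limma Benjamini-Hochberg adjusted p of 0.137). Its relative TFAP2B was near 0, at 0.0613, 0.0450 and 0.0763 FPKM. Another relative, TFAP2A, was among the genes tested and was higher with both shRNAs (log2 change 0.48).

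XBP1 (ENSG00000100219, chromosome 22, 28794555 to 28800597, minus strand) encodes a leucine zipper factor that serves secretory cells and the unfolded protein response. Its level was 753 FPKM in the control (499 to 1006), 807 with shRNA1 (539 to 1075) and 832 with shRNA2 (555 to 1109). It was by far the most abundant of the 9, with over 99.0% of tested genes below it in each library. The ratios of 1.07 and 1.10 (the shRNA1 difference turning sign with the same total) gave a log2 change of 0.12 (SE 0.09, limma Benjamini-Hochberg adjusted p of 0.413). XBP1 protein becomes an active transcription factor after the enzyme IRE1 cuts a short segment out of its mRNA. Of 5 protein-coding XBP1 transcripts in GENCODE release 29, 3 hold this segment of 26 bases and 2 lack it. The stretch around it is shown because both forms are counted in 1 deposited gene value.
XBP1 segment and flank: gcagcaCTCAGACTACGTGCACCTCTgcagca
Repeated bases at its edges allow 7 placements of the segment, and capitals mark the 20 bases inside it in every placement. The gene-level FPKM cannot tell the cut from the uncut form.

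GREB1 (ENSG00000196208, chromosome 2, 11482341 to 11642788, plus strand) is among the genes that estrogen induces most strongly in breast cancer cells. It was at 39.1 FPKM in the control (22.4 to 55.7), 47.6 with shRNA1 (27.0 to 68.2) and 42.9 with shRNA2 (25.4 to 60.5). Both were above the control, at ratios of 1.22 and 1.10, but the shRNA libraries differed by more from each other than shRNA2 did from the control. The log2 change was 0.21 (SE 0.10, limma Benjamini-Hochberg adjusted p of 0.262).

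TFF1 (ENSG00000160182, chromosome 21, 42362282 to 42366594, minus strand) encodes a small secreted trefoil peptide and is the textbook estrogen-responsive transcript. Its level was 6.39 FPKM in the control (2.62 to 10.2), 3.13 with shRNA1 (1.03 to 5.22) and 3.72 with shRNA2 (1.29 to 6.14). Both shRNA values were below the control, which exceeded shRNA1 by 2.04-fold and shRNA2 by 1.72-fold. The log2 change of -0.82 (SE 0.17) lay near the bottom, with 3.91% of tested genes below it, and its limma Benjamini-Hochberg adjusted p was 0.0936. For its single transcript of 551 bases the estimated depth gives about 109, 55 and 66 fragments. The exact Poisson 95% intervals were 89.5 to 131, 41.4 to 71.6 and 51.0 to 84.0. These cover counting error only and assume values not scaled between libraries and FPKM computed on the full 551 bases. Had a shorter length been used, the counts would be lower and the intervals relatively wider. Under these assumptions the control interval is clear of both others, while the wider deposited bounds overlap. Whether it stays clear with a shorter length was not tested. The estrogen targets GREB1 and TFF1 thus stood on opposite sides of the control, and the GREB1 to TFF1 ratio was 6.12, 15.2 and 11.6 in the same order of libraries.

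**Figure D2:**
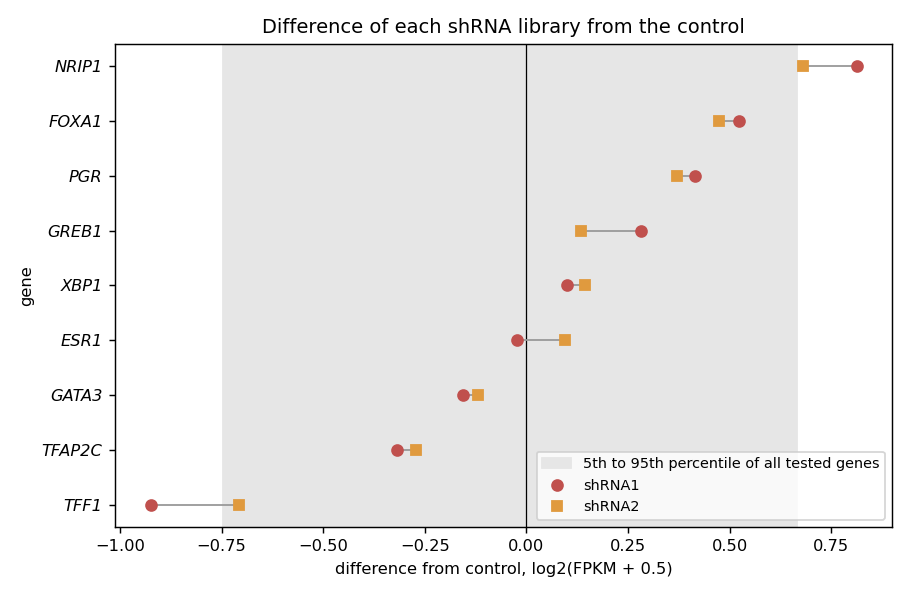
Difference of each shRNA library from the control on the log2(FPKM + 0.5) scale (horizontal axis) for the 9 genes, with circles for shRNA1, squares for shRNA2 and a grey band from the 5th to the 95th percentile of all tested genes (-0.75 to 0.67). NRIP1 lies above the band with both shRNAs, TFF1 lies below it with shRNA1 and just inside it with shRNA2, and ESR1 is the 1 gene whose symbols fall on both sides of 0.

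Across the 9 genes, 5 were higher with both shRNAs, against 42.4% of all genes tested, and 3 were lower with both, against 42.6%. With the same total 4 were higher with both, against 33.3%, and 3 lower, against 49.7%, as XBP1 then lay below the control with shRNA1. At least 1.5-fold higher with both was NRIP1 alone (6.03% of tested genes), and at least 1.5-fold lower with both was TFF1 alone (7.21%). In 0 of the 9 were the deposited bounds of both shRNA libraries clear of the control's on the same side, which held for 0.305% of tested genes. With limma's unadjusted p, 5 of 9 were under 0.05, against 29.7% of all tested genes. These were NRIP1 (0.0023), FOXA1 (0.0039) and PGR (0.0097), higher, against 13.7% of all genes, and TFF1 (0.0088) and TFAP2C (0.031), lower, against 15.9%. The median log2 change was 0.12 over the 9 genes and 0.0005 over all genes tested.

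The calls of single genes depended on the fit. With the 11546 protein-coding genes alone, where 7.11% were called higher and 11.3% lower, limma called NRIP1 (Benjamini-Hochberg adjusted p of 0.0082), FOXA1 (0.014) and PGR (0.031) higher and TFF1 (0.022) lower. With limma's robust option, where 3.28% of genes were called higher and 4.54% lower, NRIP1 (0.033) and FOXA1 (0.040) were called higher and no member lower, by Benjamini-Hochberg adjusted p. Under the other 6 alternative fits no member was called. Over all alternatives the adjusted p ran from 0.0082 to 0.228 for NRIP1, 0.014 to 0.227 for FOXA1, 0.031 to 0.227 for PGR, 0.022 to 0.250 for TFF1 and 0.085 to 0.234 for TFAP2C, in limma with Benjamini-Hochberg adjustment.

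**Figure D3:**
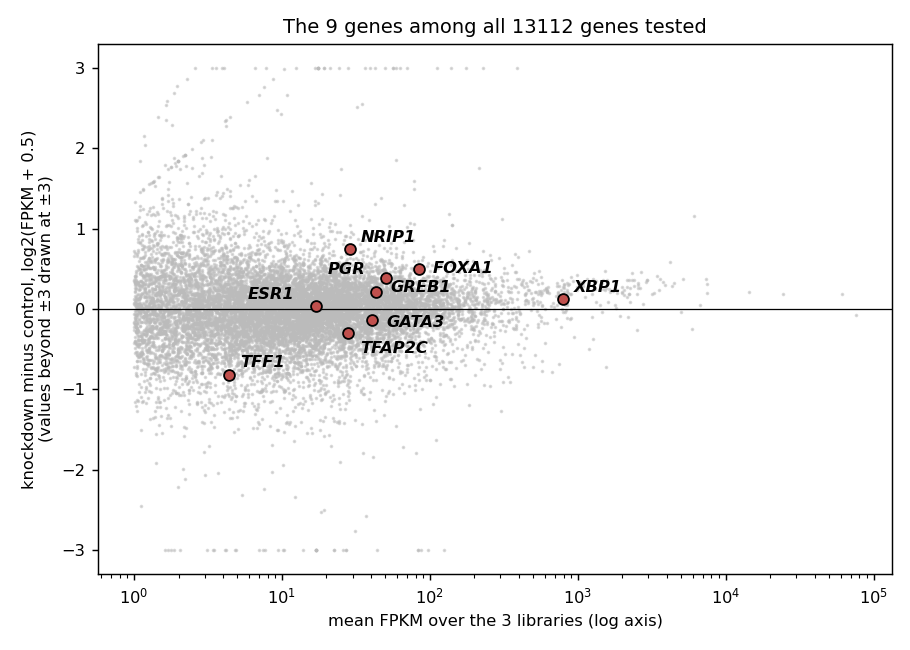
Mean level over the 3 libraries in FPKM (horizontal log axis) against the knockdown minus control difference on the log2(FPKM + 0.5) scale (vertical axis) for all 13112 genes tested (grey) and the 9 genes (red). XBP1 lies far to the right of the others, NRIP1 highest and TFF1 lowest, and all 9 lie inside the cloud of tested genes.

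Since FPKM is per length, the genes can be ordered within a library. In the control the order from high to low was XBP1, FOXA1, GATA3, PGR, GREB1, TFAP2C, NRIP1, ESR1 and TFF1. With either shRNA it was XBP1, FOXA1, PGR, GREB1, GATA3, NRIP1, TFAP2C, ESR1 and TFF1, so GATA3 stood behind PGR and GREB1, and NRIP1 stood before TFAP2C. The deposited bounds of neighbours in these orders overlapped, except for XBP1 against FOXA1 in all 3 libraries and for ESR1 against TFF1 with shRNA1. XBP1 was 11.4 times FOXA1 in the control and 8.52 and 9.09 times with shRNA1 and shRNA2. NRIP1 was 0.620 times TFAP2C in the control and 1.38 and 1.22 times with the shRNAs, and 1.18, 2.13 and 1.78 times ESR1.

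The counts of the lists that follow stand beside 42.4% of all tested genes higher and 42.6% lower with both shRNAs, or 33.3% and 49.7% with libraries scaled to the same total. Among other nuclear receptors, both shRNAs gave higher values for 16 of 24 measured and lower values for 6. With the same total these became 14 and 7, and the median log2 change went from 0.16 to 0.090. By FPKM as deposited, 4 were higher and 1 lower by at least 1.5-fold with both, against 6.03% and 7.21% of all tested genes. NR2F1, an orphan receptor gene, was at 1.70, 3.89 and 3.61 FPKM. Lower were PPARA, the fatty acid sensor, at 2.72, 0.714 and 1.07 FPKM, and RARG, a retinoic acid receptor gene, at 23.6, 14.7 and 17.7. These 3 had limma Benjamini-Hochberg adjusted p above the threshold (0.0844 to 0.121).

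With both shRNAs 17 of 34 receptor coregulators and chaperones measured were higher and 12 lower, shares near those of all genes, and the median was 0.05. With the same total the counts turned to 11 higher and 14 lower, and the median to -0.023. NCOA3, a steroid receptor coactivator gene, was at 24.2, 10.1 and 12.3 FPKM. This coactivator lay below the control with both shRNAs and the corepressor NRIP1 above it, but other coregulators went the other way. The coactivator NCOA2 (log2 change 0.30) was higher with both and the corepressor LCOR (-0.44) lower. The log2 change of NCOA3 was -1.09 (SE 0.16, limma Benjamini-Hochberg adjusted p of 0.0831). It was the only gene in this list at least 1.5-fold lower with both (7.21% of all tested genes). EP300, an acetyltransferase gene, was at 5.15, 4.03 and 3.06 FPKM. Higher were CARM1, an arginine methyltransferase gene, at 8.52, 14.8 and 12.8 FPKM, and CITED1 at 0.442, 1.03 and 1.96. CITED1 passed the filter only through the shRNA libraries, and its deposited bounds were wide, from 0 to 7.40, 11.9 and 22.3 FPKM.

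Other luminal transcription factors were higher in 16 of 26 measured and lower in 7 with both shRNAs (median 0.21, and 0.0005 over all genes tested). With the same total 15 were higher and 9 lower (median 0.13), and over the 18 with a mean of 5 FPKM or more the median was 0.32. MYB, a target and partner of the estrogen receptor, was at 4.31, 10.003 and 7.98 FPKM. Its log2 change was 0.97, above the 0.75 of NRIP1. KLF4 was lower at 5.24, 3.60 and 3.62 FPKM and TBX2 at 2.20, 1.72 and 1.69. In limma 0 of the list were called by Benjamini-Hochberg adjusted p. At an unadjusted limma p under 0.05, 11 were higher and 2 lower, against 13.7% and 15.9% of all tested genes.

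Estrogen-induced genes other than the 9 lay on both sides of the control. With both shRNAs 23 of 44 measured were higher and 16 lower, and the median was 0.06. By at least 1.5-fold 8 were higher and 5 lower, against 6.03% and 7.21% of all tested genes. On the same total 20 were higher and 20 lower (median -0.0089), and the median was 0.092 at a mean FPKM of at least 5 and 0.019 with no filter. IGFBP5, an insulin-like growth factor binding protein gene, was at 72.0, 178 and 152 FPKM, with deposited bounds clear of the control's, and ANXA9, an annexin gene, at 41.3, 93.9 and 76.3. Against these, AREG, an EGF receptor ligand gene, was at 170, 72.2 and 86.6 FPKM and STC2, a glycoprotein hormone gene, at 93.1, 45.7 and 47.8. In limma 0 of the 44 were called by Benjamini-Hochberg adjusted p. At an unadjusted limma p under 0.05, 17 were higher and 8 lower, against 13.7% and 15.9% of all tested genes.

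Targets of the progesterone receptor were mixed beside the higher PGR values. With both shRNAs 3 of 8 measured progestin-induced genes were higher and 5 lower, and the median was -0.14, turning to 0.025 over 5 genes at a mean FPKM of at least 5. The glucocorticoid and progestin target FKBP5, a receptor co-chaperone, was at 32.4, 46.0 and 38.9 FPKM and ELF5, a factor of milk-producing cells, at 50.3, 59.1 and 59.7. MT2A, a metallothionein gene, was at 30.2, 15.9 and 17.9 FPKM and STAT5A, a prolactin signal factor, at 5.30, 2.99 and 3.80. No gene of the list was called. At an unadjusted limma p under 0.05, 2 were higher and 2 lower, against 13.7% and 15.9% of all tested genes.

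XBP1 targets lay close to the control, as XBP1 itself did. With both shRNAs 13 of 25 measured were higher and 9 lower, and the median was 0.05. By at least 1.5-fold 0 changed, against 6.03% of all tested genes higher and 7.21% lower. On the same total 7 were higher and 10 lower (median -0.026). The largest difference upward was that of SYVN1, a ubiquitin ligase of the endoplasmic reticulum, at 13.3, 18.2 and 15.6 FPKM, and the largest downward that of SEC24D, a coat protein of secretory vesicles, at 8.68, 5.91 and 6.92. SEL1L, the partner of SYVN1, was at 61.8, 75.3 and 71.8 FPKM and WFS1 at 30.9, 23.6 and 23.5. In limma 0 were called over all genes. At an unadjusted limma p under 0.05, 1 was higher and 1 lower, against 13.7% and 15.9% of all tested genes.

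Secreted luminal products went both ways. With both shRNAs 5 of 9 measured, TFF1 among the 9, were higher and 3 lower, and the median of 0.26 became 0.0031 over 12 with no filter. CRISP3, a secreted cysteine-rich protein gene, was at 9.44, 37.0 and 28.9 FPKM, with deposited bounds clear of the control's, and MSMB, a secreted protein gene, at 0.852, 4.29 and 3.49. MSMB passed the filter only through the shRNA libraries, where it was higher. AZGP1, a zinc-binding glycoprotein gene of apocrine cells, was lower with TFF1, at 71.7, 46.3 and 45.3 FPKM. Luminal keratins and epithelial markers had a median of -0.05 over 10, with 3 higher and 4 lower with both. Scaled to the same total it was -0.13, with 2 higher and 8 lower. KRT19 was at 3152, 5210 and 4281 FPKM, MUC1 at 26.3, 35.1 and 28.6, and CDH1, the E-cadherin gene, at 234, 151 and 189. No gene of either list was called by limma, and those named had Benjamini-Hochberg adjusted p of at least 0.0813.

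**Figure D4:**
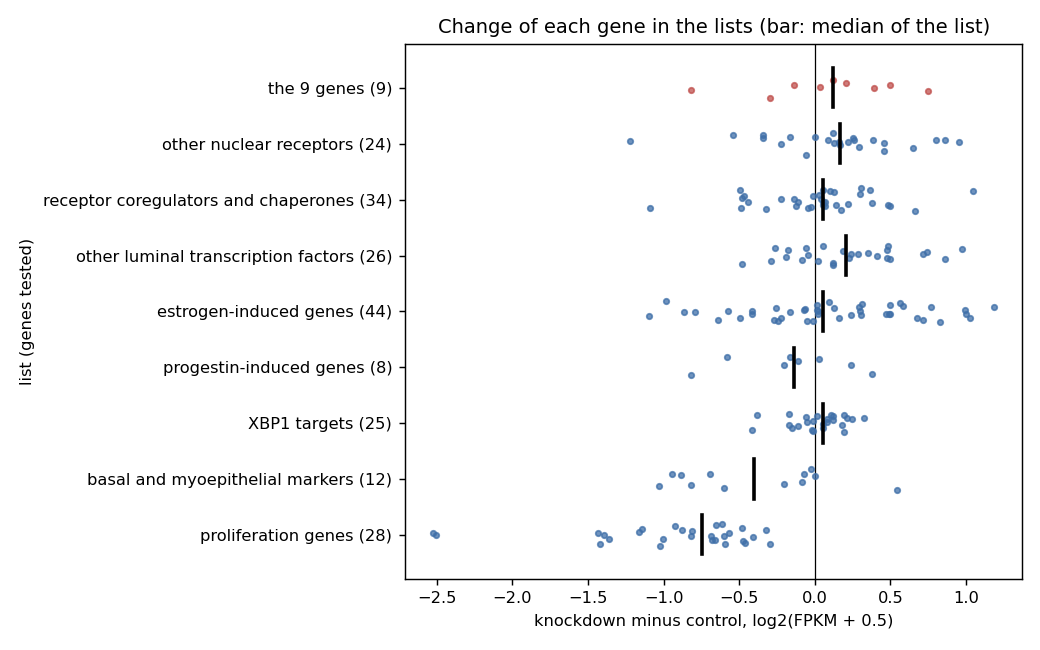
Knockdown minus control difference on the log2(FPKM + 0.5) scale (horizontal axis) for each tested gene of the 9 genes and of 8 other lists, with the number tested in brackets and a vertical bar at each list's median. The medians of the receptor, coregulator, luminal factor, estrogen and XBP1 lists lie between 0.05 and 0.21, those of the coregulator, estrogen and XBP1 lists falling just below 0 with the same total, whereas all 28 proliferation genes lie below 0 (median -0.75).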

How the data were processed

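RNA sequencing of T47D gave 3 libraries, 1 control and 2 with ERINA shRNAs. The authors deposited FPKM with a lower and an upper bound per gene and library, per the file headers. The submitters' processing notes name STAR, RSEM and GRCh38 without giving versions or roles. What computed the bounds, the annotation release, any scaling between libraries and strand counting were not given in the sources used here. Libraries shared 0 identical nonzero gene values. Fragments per library were estimated from the FPKM of single-fragment genes with 1 transcript of at least 1000 bases. This assumes unscaled values and FPKM computed on the full transcript length.

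Differences were computed on log2(FPKM + 0.5), which understates those of low genes, where the mean FPKM was at least 1. Ratios of FPKM have no pseudocount. limma 3.58.1 in R 4.3.3 (lmFit, eBayes with trend, 1 residual degree of freedom) tested knockdown against control, with Benjamini-Hochberg adjustment over all genes tested and a threshold of 0.05. The script was tested on simulated data. Genes matched GENCODE 29 for 57435 of 58039 listed (99.0%), and coordinates come from it. Members and lists were chosen with earlier results of these data known. Named besides the members are, per list, up to 2 genes higher and 2 lower with both shRNAs by size of change, any called gene, and measured genes within 100 kb of a member. Some genes this rule names are not reported here. No genes of like pattern are named, since 3 libraries are too few. Alternatives were pseudocounts of 0.1 and 1, a mean FPKM of at least 5, no filter, the same total, eBayes without trend or with its robust option, protein-coding genes alone, and leaving out each shRNA library. Tables used pandas 2.3.3 and numpy 2.4.6 under Python 3.11.15, and plots matplotlib 3.10.9.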

Additional observations from a re-analysis of the deposited data

How the results depend on the processing

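No paired analysis was possible because the groups share fewer than 2 replicate numbers, the control being a single library. Of all genes tested, limma called 11 higher and 35 lower at a Benjamini-Hochberg adjusted p under 0.05. These became 0 and 0 with no filter on low genes (5039 at an unadjusted p under 0.05), 65 and 111 with the same total, 6 higher without the eBayes trend, 430 and 595 with its robust option, and 821 and 1299 with protein-coding genes alone. The cause of these shifts was not tested. Of the 9 members, 0 were called by limma over all genes, against 0.0839% of tested genes called higher and 0.267% lower. At an unadjusted limma p under 0.05 there were 5, against 29.7% of tested genes. With the robust option 2 were called higher and 0 lower, against 3.28% and 4.54%. With protein-coding genes alone 3 were called higher and 1 lower, against 7.11% and 11.3%. The median log2 change of members was 0.12, 0.17 at a mean FPKM of at least 5, where TFF1 drops out, 0.045 with the same total, and 0.10 to 0.13 with each shRNA library left out. Scaling to the same total moved the overall median by -0.11 for shRNA1 and by -0.03 for shRNA2. It turned the sign of ESR1 (-0.039) and of the medians of coregulators (-0.023), estrogen-induced genes (-0.0089) and XBP1 targets (-0.026). ESR1 also turned (-0.023) without shRNA2, and the progestin-induced median (0.025) at a mean FPKM of at least 5. Of 71 recomputed member differences with a test, 64 kept direction and side of the threshold, 6 crossed it and 1 turned. Of 18 without a test, 1 turned. Of 70 recomputed list medians 45 stayed within 1 SD of the shRNA libraries' medians, 21 moved farther and 4 turned sign. The depth behind TFF1 was estimated at about 55 fragments with shRNA1, on the full transcript length.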

Other observations

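Genes near the 9 members were measured too. Of 22 measured genes that overlap a member or lie within 100 kb of it, 12 were higher and 6 lower with both shRNAs. Over all tested genes these shares were 42.4% and 42.6%. In limma 0 of the 22 were called (the lowest Benjamini-Hochberg adjusted p was 0.0841), against 0.0839% of all tested genes called higher and 0.267% lower. Beside NRIP1, 2 long noncoding RNA genes on its strand were higher with both shRNAs. AF127936.7 was at 0.775, 2.12 and 2.15 FPKM (control, then shRNA1, then shRNA2), and AF127936.9, which overlaps NRIP1, at 0.793, 1.91 and 1.59. Both were below 1 FPKM in the control and passed the filter only through the shRNA libraries, which favours higher values there. Their deposited bounds were wide, from 0 to 5.12, 11.2 and 12.1 FPKM for AF127936.7 and from 0 to 2.27, 5.61 and 4.54 for AF127936.9. Both share a deposited locus with NRIP1, and whether reads were divided correctly between them was not tested.

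Around XBP1 the genes differed. CTA-292E10.6, an antisense gene that starts 86 bases from XBP1 on the other strand, was at 2.02, 5.72 and 4.65 FPKM, while XBP1 itself was within 1.10-fold of the control. On the far side CCDC117 was at 17.9, 9.09 and 12.1 FPKM and CHEK2, a DNA damage checkpoint kinase gene, at 18.2, 11.4 and 13.5.

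TFF3, the trefoil gene 46631 bases from TFF1, was at 65.7, 72.2 and 61.5 FPKM, with the control between the shRNA libraries, and the protease gene TMPRSS3, 5243 bases from TFF1, was at 1.22, 1.53 and 2.07. CCDC170, upstream of ESR1, was at 3.78, 6.47 and 5.09 FPKM and TAF3, a general transcription factor gene upstream of GATA3, at 4.63, 2.64 and 3.17. RNU6-813P, a U6 copy near ESR1, was listed at 0 in the control and with shRNA1 and at 52.5 FPKM with shRNA2. The deposited bounds of that 1 value were 0 to 611, and the limma SE of its log2 change was 2.96.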
